A study of Mus musculus with 10 samples.

Results

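N6-methyladenosine (m6A), adenosine with a methyl group added in messenger RNA, is mapped in m6A-seq by sequencing RNA fragments pulled down with an antibody to m6A (IP) beside the fragments before the pull-down (input). Of 21195 peaks deposited for mouse hypothalamic neural progenitor cells, 2389 (11.3%) held fewer IP reads than input reads. These peaks were chosen by that comparison of the pooled IP and input reads, so their low ratio of IP to input reads is a description and not a finding. The remaining 18806 peaks had at least as many IP as input reads. A gene could be named for 2231 of the 2389 peaks (93.4%), and the other 158 stayed without a name. Of all 19131 named peaks 11.7% had fewer IP than input reads.

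The mark is written co-transcriptionally by a complex of Mettl3, Mettl14 and their partners, mostly at adenosines in short motifs around GGAC, and it is known to gather near stop codons and in 3′ untranslated regions. It is removed by Fto and Alkbh5 and bound by readers such as the YTH-domain proteins. A peak is an interval in which fragments are more frequent in the IP than in the input after the libraries have been put on a common scale. The plain ratio of reads has no such scaling, and over the whole table it was 2.71. A ratio under 1 is therefore a low ratio within this table and does not show depletion of m6A.

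The cells came from the hypothalamus of mouse embryos of embryonic day 14.5 whose Mettl14 alleles were floxed (Mettl14f/f) in all groups, and they were cultured with FGF2 and EGF. Virus carrying EGFP and Cre (lenti-EGFP-Cre), which deletes floxed DNA, gave the knockout, and lenti-EGFP gave the control. EGFP-positive cells were sorted after 72 hours, and polyadenylated RNA was broken into fragments of about 80 nucleotides. The labels list 4 control and 4 knockout IP libraries and 1 input library of each genotype, and they do not say whether the replicates came from separate embryos or cultures. The peak table held 1 pooled input and 1 pooled IP value per peak. No value belonged to a genotype or a library, so control and knockout were not compared, no SD could be given, and no test was run. Of 9 neural progenitor markers, 5 had a named peak (Sox2, Nes, Pax6, Hes1 and Notch1) and Vim, Hes5, Fabp7 and Msi1 had none. A named peak was found for 4 of 6 hypothalamic markers (not Rax and Six6), 2 of 5 neuronal, 2 of 4 astrocyte and 3 of 5 oligodendrocyte lineage markers. None of the 7 microglial, endothelial and mesenchymal markers had one. In a wider list of 25 microglial, blood, vascular and mesenchymal markers, 4 genes had a named peak, among them Kdr. A peak is no measure of expression.

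The only bases of these peaks that could be read were those around annotated gene starts. They are shown because antibodies to m6A also bind the related methyl mark that a transcript can carry on its first base where that base is an adenosine. Of 1827 low-ratio peaks in genes with an annotated start, 104 (5.69%, 95% interval 4.67 to 6.86%) lay within 50 bases of the start. Among the remaining peaks of like input reads the share was 9.36%. "Like input" here and below means that the remaining peaks were weighted so that they fell into the same 10 classes of input reads as the low-ratio peaks. Span was not matched in the shares at a start. With input reads per base of span matched, that difference was smaller, at -2.46 percentage points. Intervals on a share are exact Clopper-Pearson 95% intervals and cover counting error only, and peaks of 1 gene are not independent. The 8 such peaks of at most 1000 bases with the most input reads have the starts below (RefSeq, GRCm38.p6). Each line gives 30 bases before the start and 30 from it, read 5′ to 3′ on the gene's strand, and the capital is the annotated first transcribed base.
Cdc42bpb, chr12:111377689-111377748, minus strand: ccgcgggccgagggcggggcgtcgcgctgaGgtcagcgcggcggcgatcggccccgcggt
Antkmt, chr17:25792365-25792424, minus strand: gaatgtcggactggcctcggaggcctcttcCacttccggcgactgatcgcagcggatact
Nudcd2, chr11:40733631-40733690, plus strand: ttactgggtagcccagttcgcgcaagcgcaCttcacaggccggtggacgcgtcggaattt
Ube2n, chr10:95515132-95515191, plus strand: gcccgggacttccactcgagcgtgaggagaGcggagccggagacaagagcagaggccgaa
2010320M18Rik, chr8:70776832-70776891, plus strand: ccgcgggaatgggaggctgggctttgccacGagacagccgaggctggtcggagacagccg
Fam32a, chr8:72219715-72219774, plus strand: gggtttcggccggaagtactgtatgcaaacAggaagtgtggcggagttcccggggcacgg
Ankrd17, chr5:90366156-90366215, minus strand: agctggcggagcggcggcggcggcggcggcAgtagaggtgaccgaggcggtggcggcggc
Plxna2, chr1:194619799-194619858, plus strand: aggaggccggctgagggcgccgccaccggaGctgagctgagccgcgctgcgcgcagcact

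The first base was A in 2 of these 8, Fam32a and Ankrd17. Over all 104 low-ratio peaks at a start it was A in 28 (26.9%, 18.7 to 36.5%) and G in 52. At the 1113 starts with a remaining peak in the same range of input reads it was A in 32.7% and G in 44.0%, and over all 32851 annotated starts it was A in 34.4% and G in 35.6%. The interval of the 104 starts includes the 32.7% and the 34.4%. The motif GGAC, searched as these letters in the first 50 transcribed bases, was present at 24.0% of the 104 starts (16.2 to 33.4%), 21.6% of the 1113 and 18.9% of all starts. On the other strand the shares were 16.3%, 19.0% and 17.4%, and Nudcd2 was the only one of the 8 printed starts with GGAC in its first 50 bases. The median content of G and C over 300 bases around the start was 57.2%, 60.7% and 52.7% in the same order. Of the 104 peaks, 25 spanned at most 1000 bases, and the others were longer. At the starts of these 25 the first base was A in 20.0% (6.83 to 40.7%), and GGAC was present at 24.0%. At 349 remaining peaks of at most 1000 bases in the same range of input reads the shares were 33.8% and 23.2%. A match is a description of letters and not a methylated site.

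The Cdc42bpb peak, at the start of a gene for a kinase bound by the GTPase Cdc42, had 5661 input and 3866 IP reads, at a ratio of 0.683 (0.655 to 0.712). The interval of a ratio comes from the exact Clopper-Pearson interval of the IP reads as a share of both. Ube2n encodes a ubiquitin-conjugating enzyme, and its start peak had 2371 input and 1898 IP reads (0.801, 0.753 to 0.851). The Ankrd17 start peak had 1184 and 828 reads, and the Plxna2 start peak, in a semaphorin receptor gene, 923 and 845. Both latter peaks had an adjusted p above 0.05 in the authors' deposited table. An adjusted p of at least 0.05 in the authors' deposited table was listed for 8 of 21195 peaks (0.0377%), and all 8 had fewer IP than input reads. The other named ones lay in Tmem120b, Apc2, Bcan and Agap3.

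Low ratios were moderate, and all of the 2389 peaks held more IP reads than 50% of their input reads. The ratio ran from 0.543 to 0.9998, with a median of 0.837 and 5 and 75 percentiles of 0.633 and 0.920. For 1506 of the 2389 (63.0%, or 7.11% of all peaks) the upper limit of the ratio was under 1, and for 883 it was 1 or more, so counting error alone spans the threshold there. Input reads ran from 52 to 294599, with a median of 577, and IP reads had a median of 470. Together these peaks held 12.3% of all input reads and 3.65% of all IP reads.

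**Figure D1:**
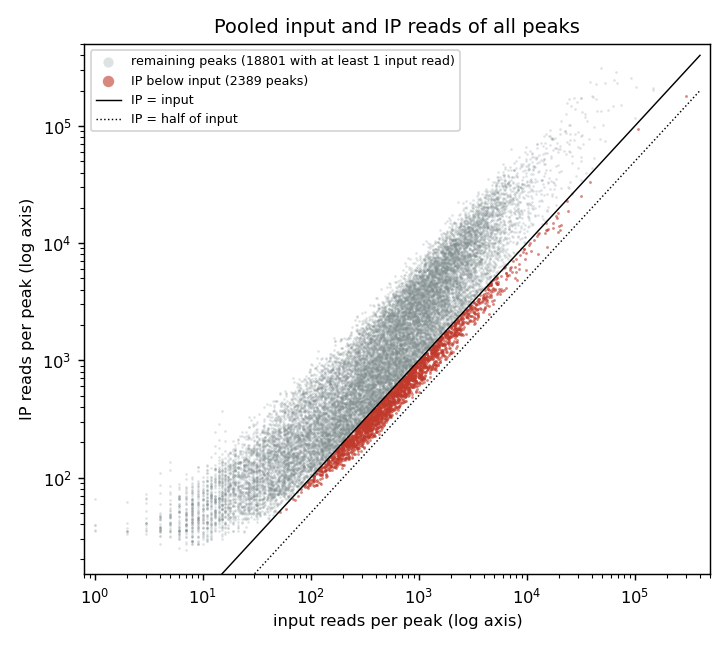
Input reads (x) against IP reads (y) of each peak, both on log axes, with the peaks that have fewer IP than input reads in red and the remaining peaks with at least 1 input read in grey. The red points fill a narrow band between the line of equal reads and the dotted line of 50%, from 52 input reads upward.

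Just under the threshold, among named peaks with at least 1000 input reads, lay Polg2 with 6123 input and 6122 IP reads and Fmnl3 with 4673 and 4663. The 5 nearest had ratios of 0.996 to 0.9998. Just at or over it lay Cacng8 with 1722 reads of each kind and Fndc3b with 1134 of each, and the ratio of the fifth nearest was 1.002. These peaks differed across the threshold by less than counting error.

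The authors' fold change ranked the peaks differently from the plain ratio of reads. In the authors' deposited table the log2 fold change, taken to compare IP with input, had a median of 1.91 in the low-ratio peaks (0.30 to 2.93) and of 3.22 in the remaining peaks. A log2 fold change below 1 in the authors' deposited table was listed for 123 low-ratio peaks (5.15%) and 53 remaining peaks (0.282%). Of the 2389 peaks with the lowest log2 fold change in the authors' deposited table, 1279 (53.5%) had fewer IP than input reads. The log2 fold change in the authors' deposited table exceeded the log2 ratio of reads (pseudocount 0.5) by a median of 1.85 in the remaining peaks, and by a higher median in the low-ratio ones. The low-ratio peak with the highest log2 fold change in the authors' deposited table, 2.93, lay in the solute carrier gene Slc24a5, with 5014 input and 4967 IP reads. Bcan, which encodes the brain proteoglycan brevican, stood near the low end with 0.35 in the authors' deposited table and 1277 input and 714 IP reads. These values come from the contrast that chose the peaks and are given as a description only.

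The share of low-ratio peaks varied with the input reads. It was 5.95% among the 3980 peaks with 52 to 198 input reads, highest at 20.1% with 280 to 358 reads, and fell step by step to 9.59% with 2480 or more. Another 2610 peaks had fewer than 52 input reads, and none of those had fewer IP than input reads. Shares by span, place, gene type and gene list are therefore set beside remaining peaks of like input reads, while counts within genes, of input density and by chromosome are not weighted.

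**Figure D2:**
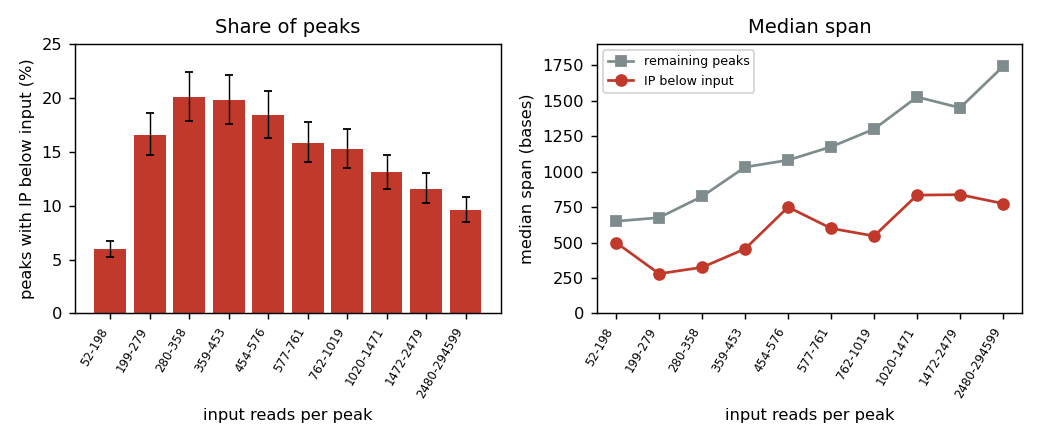
Left, the share of peaks with fewer IP than input reads (%) in 10 classes of input reads, with exact 95% intervals. Right, the median span in bases of these peaks (red) and of the remaining peaks (grey) in the same classes, where the red value lies below the grey one in each class.

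The low-ratio peaks were short, and with that dense in input reads. Their median span was 550 bases, against 1081 bases in remaining peaks of like input, and the median span was the shorter in all 10 classes of input reads. With 280 to 358 input reads the medians were 325 and 825 bases, and with 2480 or more 775 and 1742 bases. Peaks of at most 300 bases made up 943 of the 2389 (39.5%, 37.5 to 41.5%), against 24.0% of like-input peaks. Peaks of 75 bases, the shortest in the table, made up 177 (7.41%), against 4.22%. The median number of input reads per 100 bases of span was 112 and 55.1. At like input reads this density follows from the shorter span and is not a separate property. At the long end 264 peaks (11.1%) spanned over 10000 bases, against 13.5%, and the longest spanned 736147 bases. Each peak is written as 1 block, so a span includes any introns it crosses. Among peaks with a single gene identifier, and among peaks with at least 100 input reads, the excess of peaks of at most 300 bases differed from the value for all peaks by less than its counting error.

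**Figure D3:**
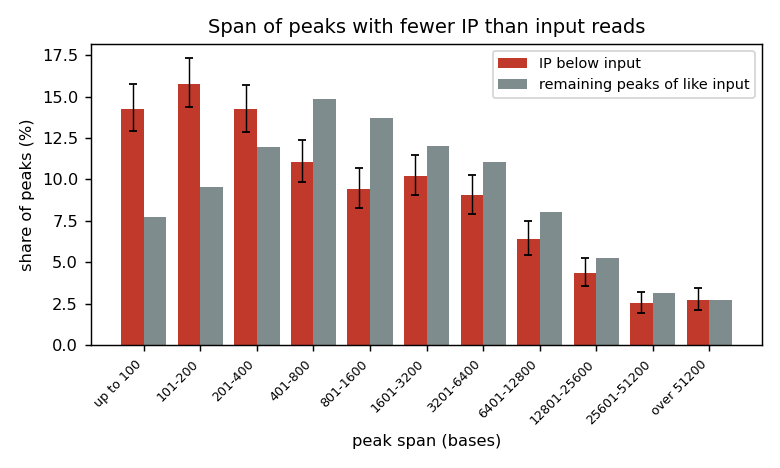
Share of peaks (%) by span in bases, for the 2389 peaks with fewer IP than input reads (red, exact 95% intervals) and the remaining peaks weighted to like input reads (grey). The red bars exceed the grey ones up to 400 bases and lie below them in the next 7 bins.

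Of 1334 genes with a low-ratio peak and at least 1 other named peak, 194 had a low-ratio peak with at least 10 times as many input reads per 100 bases as any other peak of the gene. In the 1271 genes that held both kinds, a low-ratio peak stood out in this way in 176 and a remaining peak in 150, so peaks of both kinds could stand out in density. Mafk, a gene for a small basic leucine zipper factor, had 38596 input and 33156 IP reads in 100 bases near the 3′ end of the gene (chr5:139801603-139801702). Its other 2 peaks, on both sides of this one, had 156 and 348 input reads and 286 and 965 IP reads. Fto, the m6A demethylase gene, had the lowest ratio of all named low-ratio peaks with at least 100 input reads. This peak spans 75 bases (chr8:91441788-91441862) with 996 input and 541 IP reads, at a ratio of 0.543 (0.488 to 0.604). The next Fto peak upstream had 657 and 631 reads over 50290 bases. The third, at the 5′ end, had 1539 IP reads and a ratio of 6.13, so peaks of both kinds lay in the gene.

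The other low ratios belonged to genes of varied roles. The Ndufb5 peak, in a gene for a subunit of respiratory complex I, had 425 input and 235 IP reads (0.553, 0.469 to 0.650). Sptbn1, a spectrin gene, had 4446 and 2465 reads (0.554, 0.528 to 0.583), while its other 2 peaks had ratios of 3.57 and 2.91. Dtymk, the thymidylate kinase gene, had 865 and 486 reads in 150 bases at the 3′ end (0.562, 0.502 to 0.629). The cohesin gene Stag1 had 446 and 253 reads in 75 bases at 99.5% of its span. The spliceosome gene Snrpb2 had 1193 and 680 reads, and its other peak, 391 and 283 reads, was low as well. Hnrnpu, which encodes a nuclear RNA-binding protein, had 945 and 542 reads in a peak of 100 bases, and 5 of its 7 peaks had at least as many IP as input reads. Erc1 with 2053 and 1170 reads and the semaphorin receptor gene Nrp2 with 393 and 226 completed the 10 lowest, together with Bcan. Erc1, Nrp2, Bcan, Stag1 and Dtymk also had peaks that were not low, with highest ratios of 5.04, 2.38, 1.58, 1.56 and 1.39.

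The most input reads lay in peaks of the mitochondrial genome. The peak over ND6, a complex I subunit encoded there, had 294599 input and 179623 IP reads, at a ratio of 0.610 (0.606 to 0.613), and the peak over ND2 had 106094 and 93489 (0.881, 0.873 to 0.889). Each was the only named peak of its gene. Of 7 mitochondrial peaks 2 were low. After Mafk came Nf1, the gene of the Ras regulator neurofibromin, with 31658 and 25420 reads over 62416 bases. Both of its peaks were low. A930033H14Rik had 23823 and 18893 reads in 350 bases, at a place where the gene Rhobtb1 lies on the opposite strand. Matr3, which encodes a nuclear RNA-binding protein, had 23685 and 22856 reads. Doc2b, a calcium sensor gene, had low peaks of 20718 and 14314 and of 19653 and 14071 reads. The cobalamin enzyme gene Mmab had 20255 and 13067, and the tensin gene Tns3 19489 and 12517. The labels and headers do not say whether counting used strand, so reads from genes on opposite strands may not be separable.

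Named peaks lay in 10002 genes, of which 1843 (18.4%) had at least 1 low-ratio peak. In 1541 of them there was 1 such peak, in 235 there were 2, and in 67 there were 3 or more. In 572 genes all named peaks were low, and 509 of these genes had a single peak. Of all 5039 genes with a single named peak, 10.1% were thus low. The most low-ratio peaks in a gene were 5, in 2 genes. Ubap2l had 5 low peaks of 6, with 136 to 1402 IP reads against 171 to 1982 input reads. The other peak, with 802 input and 805 IP reads, lay just over the threshold, so the gene's peaks did not separate. Setd5, a chromatin regulator gene, had 5 low peaks of 7. All 5 lay upstream, between 45.1 and 54.5% of the gene span, with ratios of 0.691 to 0.914. Its other 2 lay at 86.3 and 96.5% with ratios of 1.68 and 4.62, so here both kinds occupied different parts of the gene.

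Map2, which encodes a microtubule-associated protein of neuronal dendrites, had 4 low peaks of 7. The peak at 98.7% of the span had 12359 input and 11411 IP reads (0.923), and the one at 65.9% had 7966 and 7280 (0.914). Its 3 peaks that were not low all lay between these, at 86.5, 88.7 and 89.9%, with ratios of 1.54, 2.33 and 2.20. In Ywhae, the gene for the adaptor protein 14-3-3 epsilon, all 4 peaks were low, at 7968 and 5661, 6918 and 5944, 4736 and 3212, and 1038 and 756 input and IP reads from the 5′ to the 3′ end. Cntrl, a centriole gene, had 4 of 5, including one of 19318 and 18072 reads.

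Of 2292 genes with at least 3 named peaks, 12 had only low ones, and the 10 of these with the most input reads in a peak included Ncan and Ywhae. Ncan encodes neurocan, a proteoglycan of the brain's extracellular matrix. One of its 4 peaks had 18818 input and 16366 IP reads in 200 bases (chr8:70094785-70094984), and the other 3 had 223 to 609 input reads. The ratios of the 4 were 0.646, 0.864, 0.867 and 0.870 from 5′ to 3′. Ewsr1, an RNA-binding protein gene, had ratios of 0.916, 0.709 and 0.733. Tnpo3, whose product imports splicing factors into the nucleus, had 0.902, 0.852 and 0.860. In Sntg1, a syntrophin gene, 3 peaks of 81557 to 298984 bases had ratios of 0.622 to 0.973. The others included Snapin, Trmt6, Tprkb and Tbp.

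Both kinds of peak occurred together in 1271 genes, where the gene itself is held fixed. Input reads were part of the rule, so the split by input is a description only. The median input of the low peaks was below that of the gene's other peaks in 786 genes and above it in 484. Their span was shorter in 759 genes and longer in 507. Their place was nearer to the 3′ end in 617 of 1183 genes and nearer to the 5′ end in 566. The low peaks lay downstream of the gene's peak with the highest ratio in 630 genes and upstream of it in 641, so no side of the strongest peak was favoured.

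Ratios within a gene could differ widely. In Stim2, a gene for a calcium sensor of the endoplasmic reticulum, the peaks from 5′ to 3′ had ratios of 0.716, 1.20 and 7.08. The last had 6279 input and 44440 IP reads and lay close to the second, and the highest and lowest ratios differed 9.89-fold. In Pik3ca, which encodes a catalytic subunit of phosphoinositide 3-kinase, ratios of 7.23, 2.47, 0.808, 0.786 and 3.07 followed each other. Peaks of high ratio lay on both sides of the low ones there. Ccdc82 had 1 low peak of 2209 input and 1285 IP reads (0.582) between 2 peaks near its 3′ end with 15 and 75 and with 66 and 385 reads, and its peak with the most input among the others had 1028 and 5021 reads. Among peaks with at least 1000 input reads, Ccdc82 and Ccdc34 differed 8.39-fold and 8.13-fold between their highest and lowest ratio, and 2510009E07Rik 7.95-fold.

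The low-ratio peaks lay in the bin of the gene span nearest the 3′ end somewhat more often than remaining peaks of like input. Place was taken as the midpoint of a peak on the span of its protein-coding gene, introns included, in 10 equal bins. Peaks that reached beyond the gene span were not placed, and 2084 low-ratio peaks could be placed. The 3′ bin held 909 of these (43.6%, 41.5 to 45.8%), against 38.6%. The bin before it held 10.9%, against 13.2%, and the 5′ bin 144 (6.91%, 5.86 to 8.08%), against 7.75%. The difference in the 3′ bin lay in short peaks. Among peaks of at most 300 bases it held 58.1% (54.6 to 61.5%), against 50.6%, among those of over 300 and up to 10000 bases 39.9% against 40.5%, and among longer ones 8.52% against 8.80%. With peaks matched on input reads per base of span in place of input reads, the difference in the 3′ bin was 1.27 percentage points rather than 4.98. The 1.27 points lay within the counting error of 2.15 points. The gene end itself lay within 100 bases of 14.2% of the low-ratio peaks and of 14.9% of like-input peaks.

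**Figure D4:**
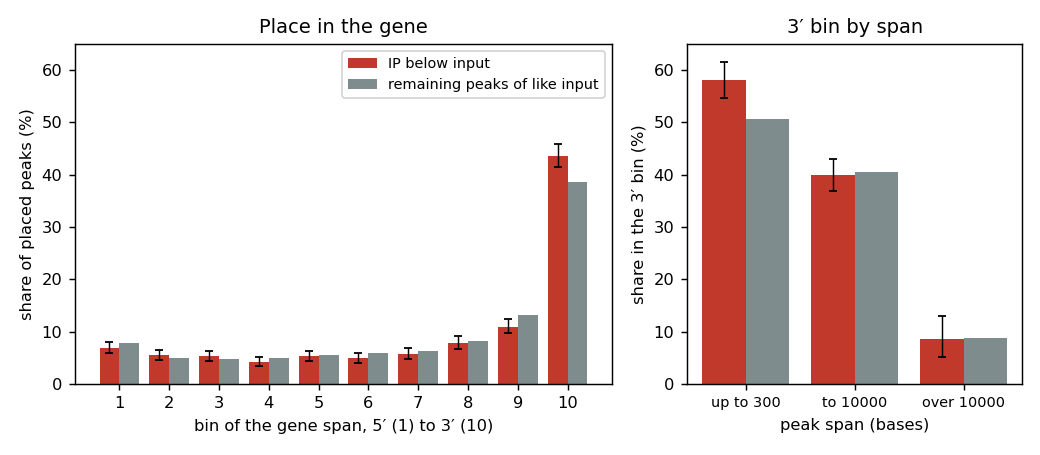
Left, the share of placed peaks (%) in 10 equal bins of the gene span from 5′ to 3′, for peaks with fewer IP than input reads (red, exact 95% intervals) and remaining peaks of like input (grey). Right, the share in the 3′ bin by peak span, where the red bar exceeds the grey one for peaks of at most 300 bases and the bars are close for longer peaks.

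By gene type, 91.1% of the low-ratio peaks were named after protein-coding genes, against 86.6% of like-input peaks. Long noncoding RNA genes held 42 (1.76%), against 3.77%. An overlap with a peak on the opposite strand was found for 210 low-ratio peaks (8.79%), against 14.4%. Span was not matched in this comparison, and the low-ratio peaks were the shorter, with medians of 550 and 1081 bases. Its part in the difference was not tested. Another peak of the same identifiers lay within 200 bases for 22.9% of both kinds. By chromosome the share of peaks with fewer IP than input reads ran from 7.06% on chromosome 7 to 13.4% on chromosome 2, among the autosomes and X.

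Gene lists were read against the share expected from the input reads of their peaks. Of 26 lists with at least 10 named peaks, 18 had more low-ratio peaks than expected and 8 had fewer. Another weighting, threshold or naming rule moved 8 of the 26 to the other side of the expected share at least once. These were replication genes, aminoacyl-tRNA synthetases, histone and DNA modifiers, hypothalamic transcription factors, mRNA decay genes, oligodendrocyte lineage markers, translation factors and ubiquitin-specific proteases. The counting interval lay wholly above the expected share in 8 lists and wholly below it in 1. Each list was also read without a gene that held the most of its low peaks, which was chosen once the counts were known. Where genes tied, only 1 of them was left out. This was so, for example, for Alkbh5 in the m6A machinery, Rpl12 in ribosomal proteins and Hnrnpd in splicing factors, and the genes tied with them were not tried. The interval then stayed above in 4 of the 8, which were ribosomal proteins, the respiratory chain, splicing factors and nuclear transport. In the other 4 it included the expected share, with 10 low peaks of 64 for matrix genes without Ncan, 5 of 18 for neuronal markers without Map2, 10 of 50 for m6A machinery without Alkbh5 and 41 of 270 for solute carriers without Slc39a10. The lists were not tested, several peaks of a list can belong to 1 gene, and they were chosen with results of these data known.

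Among genes of protein synthesis and energy supply the shares varied, and that of ribosomal proteins was the highest of the 26 lists. Of 18 peaks in ribosomal protein genes, 7 were low (38.9%, 17.3 to 64.3%), against 11.4% expected. They lay in 7 genes, and none of these had another named peak. Rpl14 had 17273 input and 14759 IP reads in 175 bases. Rpl39 had 6531 and 5256 reads, and Rpl13 5163 and 4635. Ribosomal protein genes have many pseudogene copies in the genome, and the labels do not say how reads that match several places were treated. In the respiratory chain and ATP synthase list 13 of 37 peaks were low (35.1%, 20.2 to 52.5%), against 11.3%. Uqcrfs1, a complex III subunit gene, had low peaks of 3529 input and 2336 IP reads and of 1510 and 911. Uqcrb, of the same complex, had 1512 and 1088, and Cycs, the cytochrome c gene, had 1708 and 1582 in one of 3 low peaks. Initiation and elongation factors stood at 9 of 71 (12.7%), against 12.5%, with Eif3c at 5331 and 5058 reads. That list was set by symbol, and Eif2ak1 and Eef1akmt2 in it encode enzymes that modify such factors. Aminoacyl-tRNA synthetases had 6 of 34 (13.1% expected), proteasome subunits 6 of 30 (12.3%) and chaperones 17 of 98 (11.9%), and glycolysis and citrate cycle genes had 1 of 20 (12.1%).

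Nuclear transport and splicing genes also stood above the expected share. Nuclear pore and transport genes had 22 low peaks of 74 (29.7%, 19.7 to 41.5%), against 13.3%, in 14 genes. Ranbp2, a pore component, had 7842 input and 6258 IP reads, the Ran cofactor gene Ranbp1 6291 and 6231, the importin gene Kpna1 3282 and 2802, and Tpr, of the pore's basket, 1611 and 1184. Tpr held 4 of the 22. Without it, which was tried only once the counts were known, the excess was 12.7 rather than 16.4 percentage points. Splicing factors and hnRNPs had 27 of 115 (23.5%, 16.1 to 32.3%), against 11.0%, in 21 genes. Hnrnpa1, which also has many pseudogenes, had 18472 and 16944 reads and Hnrnpd, which encodes a protein of AU-rich elements, 7786 and 5028. The splicing factor gene Srsf12 had 3924 and 3504 reads. Genes of mRNA decay and translation control had 13 of 94 (13.8%), near the expected 13.1%, with the deadenylase subunit gene Cnot6 at 3134 and 2145.

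The m6A machinery itself had 12 low peaks of 52 (23.1%, 12.5 to 36.8%), against 11.9%, in 8 genes. All named peaks of the demethylase gene Alkbh5 were low, at 1774 input and 1729 IP reads and 363 and 323. Their ratios were 0.975 (0.912 to 1.042) and 0.890 (0.764 to 1.037), so both intervals included 1. Both peaks of Fmr1, whose product binds RNA and ribosomes, were low too, at 3887 and 3377 (0.869, 0.829 to 0.910) and 1511 and 1161. Of the 3 Fto peaks 2 were low, as given above, and the interval of the one with 657 input reads (0.860 to 1.073) included 1. The other 6 low peaks lay in Ythdf3 with 2, and in Igf2bp3, Mettl14, Prrc2a and Virma with 1 each.

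Among genes of cell structure and membranes the shares were mixed. Matrix, laminin and collagen genes had 14 low peaks of 68 (20.6%, 11.7 to 32.1%), against 11.0%. Ncan held 4 of these. Without it, again tried once the counts were known, the excess was 4.86 rather than 9.54 percentage points. Solute carriers had 44 of 275 (interval 11.9 to 20.9%), against 11.8%. Slc1a3, the glutamate transporter gene of radial glia and astrocytes, had 8490 and 6591 reads in 500 bases at 99.4% of its span. Slc36a1, an amino acid transporter gene, had 4206 and 3742. Motor proteins had 15 of 93 (12.2% expected), ubiquitin-specific proteases 13 of 80 (12.7%), and tubulins, actins and intermediate filaments 2 of 28 (11.1%). Cell cycle regulators had 16 of 77 (20.8%, 12.4 to 31.5%), against 13.5%, with Myc at 3543 and 3220 reads and the proliferation marker gene Mki67 at 1676 and 1377 and at 1471 and 1105. Replication genes had 8 of 51 (12.8% expected), with Pola1 holding 3.

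C2H2 zinc finger genes were the list whose interval lay wholly below the expected share. Of 807 peaks in genes named as C2H2 zinc fingers, 50 were low (interval 4.63 to 8.09%), where 91.4 were expected (11.3%). The 50 lay in 46 of 390 genes. Zkscan6 had 12635 input and 12015 IP reads, Zfp977 9746 and 8269, Zfp26 4386 and 4071, and Zfp354b 4362 and 3774. These genes resemble each other in sequence, and reads that match several of them may not be placed with certainty. Histone and DNA modifiers, with 23 of 181 (12.7%), stood at the expected 12.4%, and 5 of the 23 lay in Setd5. No peak of 14 in the histone list was low, and 3 of the 14 belonged to H13, whose symbol fits the list while the gene encodes a signal peptide peptidase. A count of 0 of 14 allows a share of up to 23.2%.

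Of the lists of cell identity, neuronal markers had 9 low peaks of 25 (interval 18.0 to 57.5%), against 10.4%. All 9 lay in 3 genes, with 4 in Map2, 3 in Sox11 and 2 in Sox4, and without Map2, tried for the same reason, 5 of 18 were low. Sox4 and Sox11 encode transcription factors that immature neurons and progenitors share, and one Sox4 peak had 2579 input and 2512 IP reads. Neural progenitor markers had 2 of 37 (11.5% expected), in Slc1a3 and in Notch1 with 318 and 289 reads. Hypothalamic transcription factors had 3 of 38 (10.4%). These lay in Nkx2-2 with 911 and 821 reads, Nkx2-1 with 588 and 443, and Tbx3 with 545 and 447. Astrocyte and tanycyte markers had 3 of 38 (11.6%), and oligodendrocyte lineage markers 2 of 25 (8.68%). Of the 6 peaks in microglial, blood, vascular and mesenchymal markers 1 was low, in Kdr. The lists of the mitochondrial genome, which RefSeq writes without the searched prefix, and of clustered protocadherins matched no named peak.

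**Figure D5:**
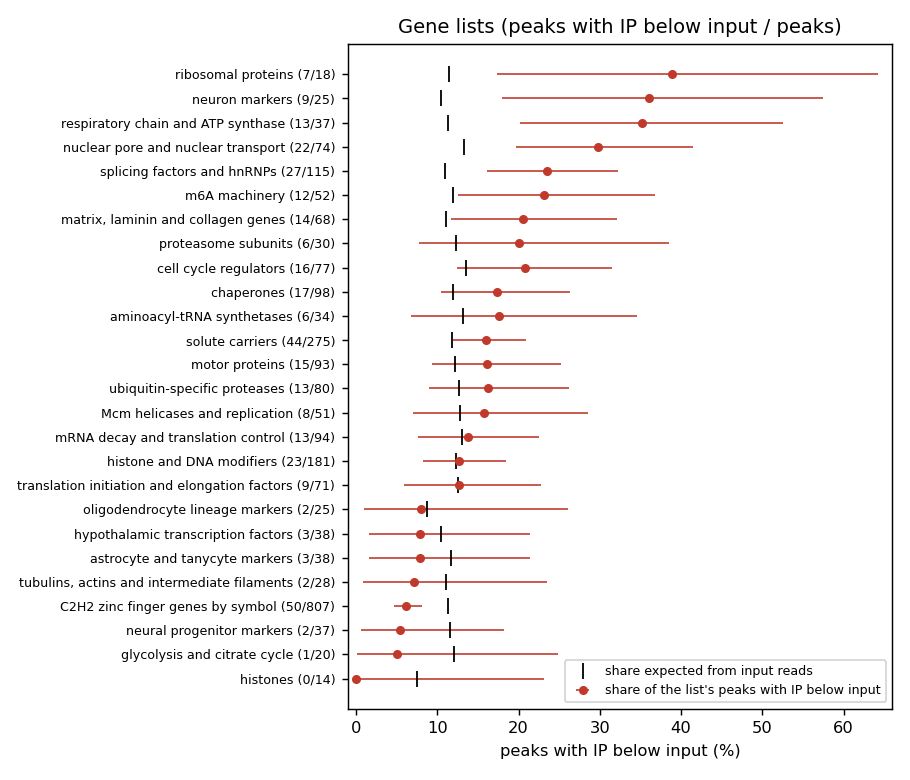
Share of each list's named peaks with fewer IP than input reads (%, red point, exact 95% interval) and the share expected from the input reads of those peaks (black tick), for the 26 lists with at least 10 named peaks, ordered by the difference. Ribosomal protein genes stand at the top with 7 of 18, and the interval of the C2H2 zinc finger genes, with 50 of 807, lies wholly below the tick.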

How the data were processed

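Tools listed in the submitters' processing notes are STAR 2.5.2a, Trimmomatic 0.32 and bcl2fastq 2.17.1.14, with the builds GRCm38.p6 and GRCh38.p13, and no peak caller is named there. The deposited counts are whole numbers of input and IP reads per peak, with 1 pooled column each, per the file headers. No label or header says whether these are sums over libraries, and the intervals take them as counts. The deposited log2 fold change, p-values and score are the authors' own, and the groups behind them are not named in the headers. Both deposited files listed the same 21195 peaks.

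Peaks were named by position with RefSeq genes of GRCm38.p6. A gene had to overlap 50% of the shorter of peak and gene, and lie on the peak's strand where the gene strand was known. The gene strand came from the RefSeq start table, which covers 80.1% of the named genes. A gene without a strand there was accepted for a peak of either strand. Place in the gene was read along the peak's strand, so a name from the wrong strand would reverse it. A gene named from both strands kept the one with 10 or more times the IP reads of the other. A position within a gene's span does not show that the reads are the gene's, and exons were not used.

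Low-ratio peaks were compared with remaining peaks weighted to their deciles of input reads, and list shares with the share expected from those deciles. The weighting and placing were tested on simulated data with Python 3.11.15, NumPy 2.4.6, pandas 2.3.3 and SciPy 1.17.1. Named genes were those with the most input reads, the lowest ratios, the most low peaks, only low peaks, or the widest range of ratios, those nearest the threshold, and up to 4 peaks per list, and some of these are not reported here. The members and lists were chosen with earlier results of these data known. The planned comparison of knockout with control was not run. Other thresholds, weights and naming rules were tried.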

Additional observations from a re-analysis of the deposited data

How the results depend on the processing

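No paired analysis was possible because no column belonged to a library, and the planned knockout comparison, with its replicate block and left-out replicates, was not run. The set shrank to 1506 peaks with an upper limit of the ratio under 1, and to 918 with IP reads below 80% of input. Relative to an excess of 15.5 percentage points, peaks of at most 300 bases stood 17.5 points above like-input peaks in the 1506 and 12.6 without weights. With input reads per base matched, the difference in the 3′ bin was 1.27 points, within its counting error. The difference at the annotated start was then -2.46 rather than -3.69. Low peaks had more input than the gene's other peaks in 38.1% of genes and in 30.3% with at least 100 input reads per peak, a description only since the rule used input. Under the other planned settings these differences kept their direction and moved by less than their counting error. The list differences moved by less than their counting error in all 182 combinations of 26 lists and 7 settings, and 18 of the lists kept their sign in all 7. The settings share most of their peaks and the intervals of small lists are wide, so few changes could exceed that error. A change from 4.54 to -2.76 points for aminoacyl-tRNA synthetases, with only peaks of upper limit under 1 counted as low, stayed within it. Single libraries, depth and the spread between replicates were unknown.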

Other observations

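The 42 low-ratio peaks in long noncoding RNA genes lay in 41 genes, with 233 to 15164 input reads and a median ratio of 0.845. D030068K23Rik had 15164 input and 12885 IP reads over 20542 bases, Gm26590 had 10823 and 8492 reads in 325 bases, and 9330020H09Rik had 8102 and 4808 (0.593, 0.573 to 0.615) in 275 bases. Meg3, an imprinted noncoding RNA, had 2946 and 2370 reads in 237 bases. These examples were chosen after their values were seen.

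In Gm26590 the low peak held 3330 input reads per 100 bases and the gene's other peak 0.441. In Srsf12 the values were 3139 and 1.29, and in Fbxo36 1940 and 1.39 input reads per 100 bases.

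A low-ratio peak of 222 bases in Terf2, which encodes a telomere-binding protein, contained the hairpin of Mir7075, with 719 input and 702 IP reads. Its ratio of 0.976 differed from 1 by less than counting error. Most peaks with a microRNA hairpin had at least as many IP as input reads, and over all peaks 11.3% were low.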
